A study of Mus musculus with 40 samples.

Results

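The 9 genes described here encode secreted factors that act on blood vessels, with 1 regulator of the response to low oxygen. They are Vegfa, Vegfb, Pgf, Angpt1, Angpt2, Angptl2, Angptl4, Adm and Hif1a, and they were taken by symbol from the annotation of the array, 9 of 29411 gene symbols, with 15 probes. The list was proposed because the level of Angptl2 was low on the arrays of mice given the highest dose of KAL-1. The list was thus chosen by the Angptl2 levels in that contrast, and all values of HF75 against HFC are given as a description without a test.

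RNA of stromal vascular cells (SVCs) from the subcutaneous fat of C57BL/6J mice was measured on 1-colour Agilent arrays. SVCs are the cells that remain of fat tissue without its mature adipocytes, and the series also calls them infiltrating macrophages. Weaned mice of 3 to 4 weeks of age received a low-fat diet (LFC), a high-fat, high-sucrose diet (HFC), or that same diet with 5, 20 or 75 µg of the botanical formulation KAL-1 (HF5, HF20 and HF75). Tissue was frozen before RNA was extracted. There were 11 LFC and 11 HFC arrays, at days 1, 6, 10 and 14 and at weeks 0, 3, 6, 9, 12, 15 and 18. A paper on the liver arrays of this experiment counts the weeks from day 14. By that count, day 14 and week 0 were the same time, and here they are kept apart as labelled. HF5 had 6 arrays (weeks 3 to 18), and HF20 and HF75 had 5 each (weeks 3 to 15). Each diet had 1 array at a time point. The deposited design text speaks of 3 biological replicates per diet, the labels give 1 array, and the number of animals behind an array is not stated. The p-values therefore measure the spread between arrays and time points. These 38 of 40 arrays were used, and the other 2, both of week 18, had labels that conflict.

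The vascular endothelial growth factor (VEGF) family drives the growth and upkeep of blood vessels through receptor tyrosine kinases on endothelial cells. Angiopoietins act on a separate endothelial receptor and set how stable or how plastic a vessel is, and several genes of the group are induced when oxygen is low, through hypoxia-inducible factor (HIF). Fat tissue needs new vessels as it expands, and its adipocytes, vessel cells and immune cells all produce such factors.

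Some arrays stood apart before any gene was compared. All levels below are log2 intensities from which the 75th percentile of their own array was subtracted, and 1 unit is a doubling. That percentile had an intensity of 7.86 on the LFC array of week 3 and of 161 to 2044 on the others. Only 17.2% of its probes were well above background, against 53.4% to 87.2% on the others (median of all 69.5%). On the LFC array of day 14 the scanner software rejected 9104 spots, as uneven or as unlike their replicate spots. Ranked against each other array, LFC week 3 had a median Spearman correlation of 0.443 and LFC day 14 of 0.458, while the rest had 0.832 to 0.942. Correlations across arrays leave these 2 out, with 36 arrays. The titles of 4 arrays of week 9 (LFC, HFC, HF5 and HF20) carry the letters WS, whose meaning is not stated, and they were also compared as a set.

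Markers of several cell types were present on these arrays. Emr1, a macrophage surface receptor, was well above background on 37 of 38 arrays, Pecam1, an endothelial adhesion molecule, on 38, and Pdgfra, a receptor of stromal progenitors, on 36. Adipoq, the adipocyte hormone adiponectin, was well above background on 35 of 38 arrays, with 0.12 on HF5 week 15 the lowest of these and 7.22 on HFC day 6 the highest. It was not detected well on LFC week 18 (-7.39). The RNA was thus not of macrophages alone. In bulk samples, fewer cells of a type and less RNA per cell cannot be told apart.

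**Figure D1:**
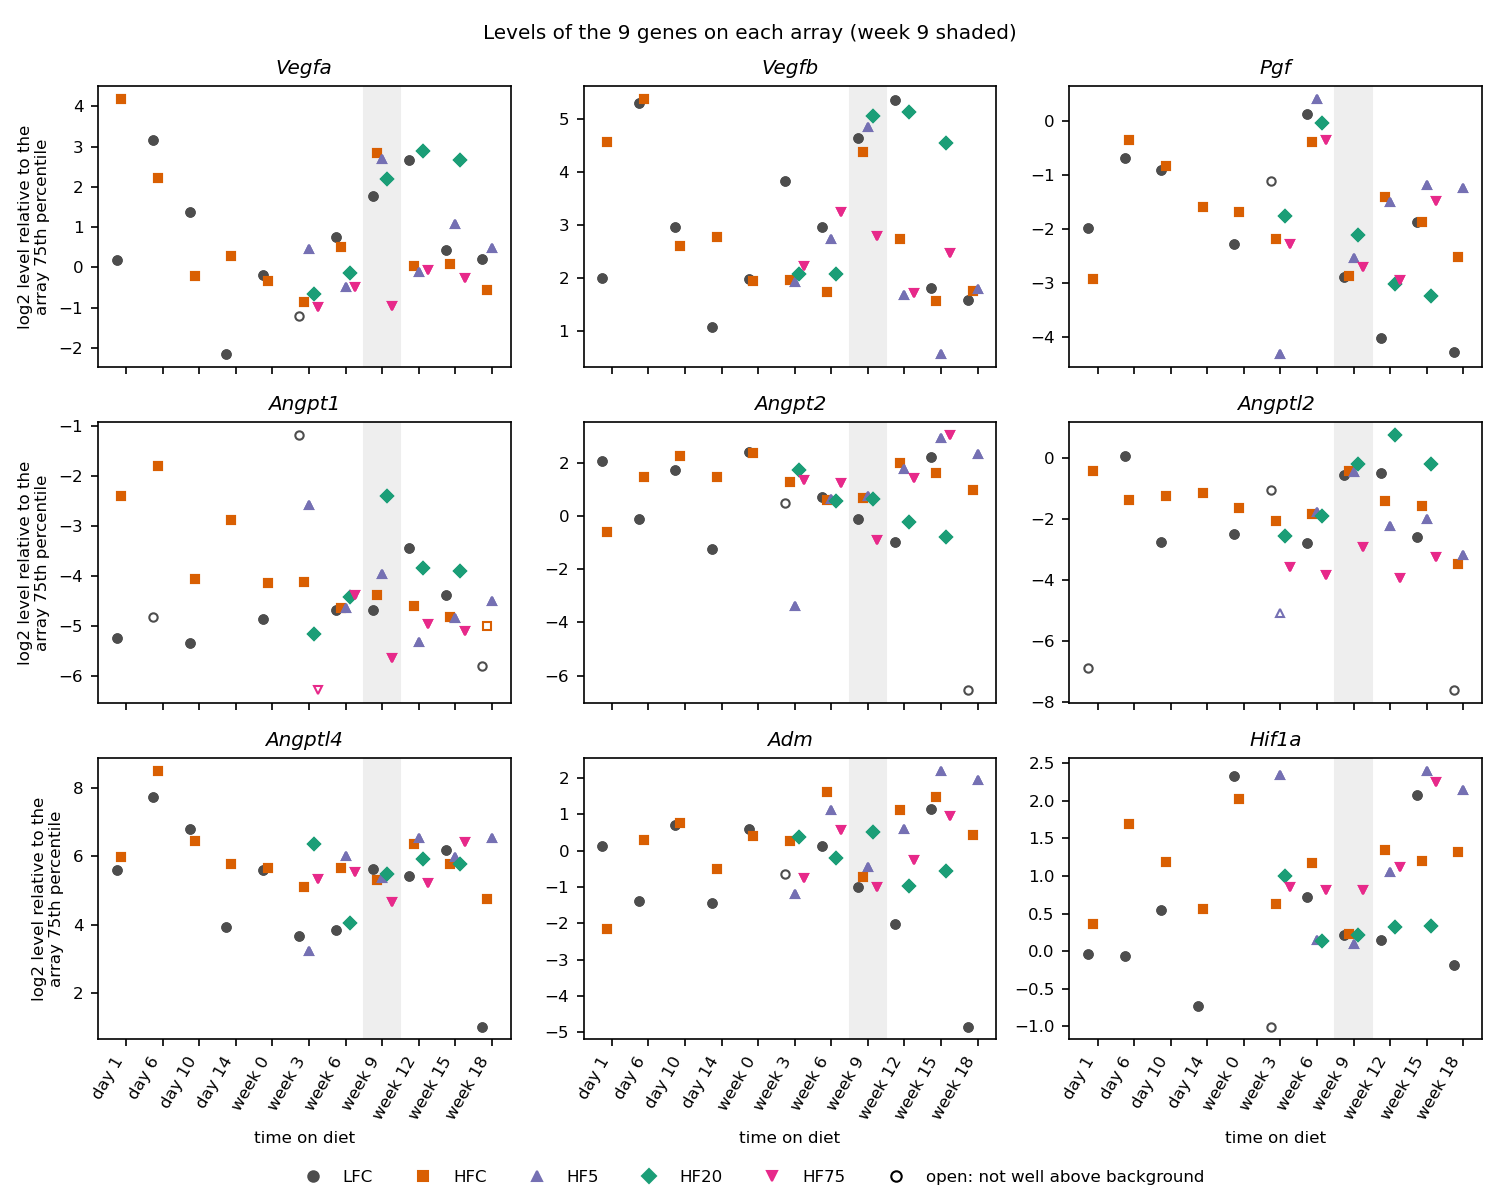
Level of each of the 9 genes (y axis, log2 above the array's 75th percentile) on each array at its time on diet (x axis), with 1 symbol per diet, open where the probe was not well above background and with week 9 shaded. Vegfa and Vegfb were high on the shaded arrays other than HF75, and Pgf was high on all 5 arrays of week 6.

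Vegfa is the principal ligand of the VEGF family and a classical target of HIF. Its level had a median of 0.44 on LFC arrays (-2.16 on day 14 to 3.16 on day 6), 0.09 on HFC arrays (-0.86 on week 3 to 4.19 on day 1) and 0.47 on HF5 arrays (-0.48 to 2.69). On HF20 arrays it was -0.67, -0.15, 2.19, 2.90 and 2.68 at weeks 3 to 15, and on HF75 arrays -0.98, -0.48, -0.96, -0.06 and -0.26. The ranges of all 5 diets overlapped, and HF75 had no array above 0. The 4 probes of Vegfa moved together, with r of 0.72 to 0.94 against the brightest. Vegfb, a family member that binds VEGF receptor 1 and is known mainly from tissues with high fatty acid use, was well above background on all 38 arrays. Its median was 2.95 on LFC (1.07 to 5.35), 2.60 on HFC (1.57 to 5.37) and 1.85 on HF5 arrays (0.56 to 4.85). It was 2.08, 2.07, 5.04, 5.13 and 4.54 on the HF20 arrays and 2.22, 3.23, 2.79, 1.72 and 2.46 on the HF75 arrays. The diets overlapped here too, and the high values lay at the same arrays as for Vegfa. Pgf, placental growth factor, binds the same receptor. It was well above background on 36 of 38 arrays and had medians of -1.92 on LFC (-4.28 to 0.14), -1.67 on HFC (-2.93 to -0.35) and -1.37 on HF5 arrays (-4.32 to 0.42), with no diet apart from the others.

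The angiopoietins have opposed roles: Angpt1 activates the endothelial receptor Tek and steadies vessels, and Angpt2 mostly blocks it and is released by endothelial cells themselves. Angpt1 was the dimmest against its own background, with 6 arrays not well above it, and ranged from -6.28 on HF75 week 3 to -1.17 on LFC week 3. Both of these arrays were among the 6, so the ends of this range are not exact. Its 2 probes did not move together (r of 0.09), so its differences depend on the probe. The genes most like it were Gm6267 (r of 0.80), Gm8272 (0.79) and C230021P08Rik (0.73). Angpt2 had a median of 0.47 on LFC (-6.56 on week 18 to 2.41), 1.46 on HFC (-0.61 to 2.36) and 1.28 on HF5 arrays (-3.38 on week 3 to 2.93). Its values were 1.75, 0.56, 0.65, -0.22 and -0.78 on HF20 and 1.35, 1.24, -0.89, 1.45 and 3.05 on HF75 arrays. LFC week 18 and HF5 week 3 lay far below all other arrays, and the rest overlapped between diets.

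Across the 36 arrays Angpt2 followed the endothelial markers. Its level and the mean of 9 endothelial markers had Pearson r of 0.95 and Spearman rho of 0.91 (n = 36), and r of 0.87 without LFC week 18 and HF5 week 3. On these 2 arrays the endothelial mean was -3.87 and -1.80. With the mean of 8 pericyte and smooth muscle markers r was 0.92 (0.74 without these arrays), and with the 10 receptors for VEGFs, angiopoietins and adrenomedullin 0.94 (0.83). Of the receptors, 3 (Kdr, Tek and Tie1) are also among the endothelial markers. The arrays share the layout, the hybridisation protocol and in part slides, so the correlations describe these arrays only. Of 20230 genes, those most like Angpt2 were Notch3 (r of 0.96, n = 35), Wtip (0.96) and Thsd1 (0.96, both n = 36).

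Angptl2 and Angptl4 are angiopoietin-like proteins. Angptl2 is secreted by adipose tissue and is known from inflammation of fat, and Angptl4 inhibits lipoprotein lipase and responds to fasting, fatty acids and low oxygen. Angptl2 had a median of -2.53 on LFC (-7.61 on week 18 to 0.08 on day 6), -1.40 on HFC (-3.48 to -0.40) and -2.10 on HF5 arrays (-5.08 to -0.44). It was -2.56, -1.88, -0.18, 0.77 and -0.18 on HF20 arrays, where weeks 9 to 15 were high. Its 2 probes had r of 0.79, and 5 arrays were not well above background. Angptl4 had a median of 5.59 on LFC (1.03 to 7.72), 5.78 on HFC (4.75 to 8.49) and 5.99 on HF5 arrays (3.25 to 6.52). It was saturated on 17 of 38 arrays, among them all 4 WS arrays and all 5 of week 15, so its differences there are bounds at best. Its lowest arrays were those where Angpt2 was lowest, LFC week 18 and HF5 week 3. Its r with the endothelial mean was 0.80 (rho 0.62, n = 36) and 0.51 without them. All 17 saturated arrays were among the 36, so no correlation of Angptl4 is exact. The genes most like Angptl4 were Sdpr (r of 0.91), Gpihbp1 (0.90), the anchor of lipoprotein lipase on capillaries, and Lpar4 (0.89). Those most like Angptl2 were Tln2 (0.90), Ephx2 (0.88) and 1110021L09Rik (0.86).

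Adm encodes adrenomedullin, a vasodilating peptide that HIF induces. It had a median of -0.63 on LFC (-4.84 on week 18 to 1.14), the value of week 3, which was not well above background. Without the 2 LFC arrays that stood apart the median was 0.13. It was 0.40 on HFC (-2.17 to 1.60) and 0.86 on HF5 arrays (-1.19 to 2.19). It was 0.36, -0.19, 0.50, -0.98 and -0.57 on HF20 and -0.77, 0.56, -1.01, -0.25 and 0.95 on HF75 arrays, within the range of HFC. The mean of 7 angiogenesis inhibitors followed it with r of 0.89 and rho of 0.88 (n = 36), and r of 0.80 without LFC week 18 and HFC day 1. Its nearest genes were Ccl7, a monocyte chemokine (0.91), Fbln7 (0.91) and Spry2 (0.90). Hif1a, the oxygen-regulated subunit of HIF, is controlled mainly through the stability of its protein, so its RNA is no measure of HIF activity. It had a median of 0.15 on LFC (-1.00 to 2.34), 1.19 on HFC (0.23 to 2.02) and 1.60 on HF5 arrays (0.09 to 2.40). It was 1.00, 0.13, 0.22, 0.32 and 0.34 on HF20 and 0.86, 0.82, 0.82, 1.12 and 2.26 on HF75 arrays, again with overlap. Hif1a went most with Tpm4 (r of 0.88, n = 33), Otud1 (0.81) and Ctla2b (0.80).

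The WS arrays differed from the arrays of weeks 6 and 15 of the same diets in Vegfb and Angptl2. Vegfb was 4.64 on LFC, 4.37 on HFC, 4.85 on HF5 and 5.04 on HF20 among the WS arrays, against a median of 1.94 on the 8 arrays of weeks 6 and 15 (0.56 to 4.54). The WS arrays lay above all but HF20 week 15, which lay between them. In limma with diet in the model, Vegfb was 5.58-fold higher, by 2.48 (SE 0.55, 95% confidence interval 1.24 to 3.72, adjusted p = 0.0438, 12 arrays). Angptl2 was -0.53, -0.40, -0.44 and -0.18 on the WS arrays and -2.77 to -0.18 on the others (median -1.85). Here as well HF20 week 15 alone reached the WS arrays. The fold was 2.70, or 1.43 (SE 0.33, interval 0.68 to 2.18, limma adjusted p = 0.0460). Thus 2 of 9 genes passed, both higher, where 6.41% of 31346 probes passed, 4.23% higher and 2.18% lower. Both calls were lost with scan date or slide as a random block. In the fit without these blocks, 6 of 9 genes and 29.7% of probes had an unadjusted p under 0.05.

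The other genes did not pass this test in the setting reported. In limma with array weights, which called 13164 of the 31346 probes, Vegfa (adjusted p = 0.00182), Adm (0.00352), Pgf (0.00568) and Hif1a (0.0305) passed as well. Angpt1 passed with quantile normalization (0.0419, 3011 probes called) and Adm without the HF20 array (0.0221, 3649 called). Vegfa was 1.76 to 2.84 on the WS arrays and -0.48 to 2.68 on the others, with a difference of 1.76 (SE 0.55, limma adjusted p = 0.0763). Adm differed by -1.28 (SE 0.50, limma adjusted p = 0.128) and Pgf by -1.60 (SE 0.68, adjusted p = 0.153). Angpt1, Hif1a and Angpt2 had adjusted p of 0.163, 0.226 and 0.518, and Angptl4 was saturated on all 4 WS arrays and 4 of the 8 others, so no fold is given. The calls of Vegfb and Angptl2 depend on the set of arrays, while the differences without any 1 WS array stayed at 2.24 to 2.73 and 1.19 to 1.63. Without the WS array of LFC their adjusted p was 0.168 and 0.184, without that of HFC 0.171 for each, and without that of HF5 0.191 for each. With the scan date as a random block it was 0.285 for each, the highest of 14 alternatives (lowest 0.000720 and 0.000967). Slide and scan date cannot be told apart from the letters WS, since no date held arrays of both sets.

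Genes of the pathway outside the 9 were taken from lists, and their calls share the limits of those of Vegfb and Angptl2. With scan date or slide as a random block, 0 probes were called in limma (4755 and 4640 at an unadjusted p under 0.05), so no call of a list gene held there either. Of 10 receptors 2 fell in the WS arrays: Ramp3, a subunit of adrenomedullin receptors (37.9-fold, -5.24, SE 1.13, limma adjusted p = 0.0427), and Calcrl, its partner (2.59-fold, -1.37, SE 0.34, adjusted p = 0.0474). Of 25 HIF targets 3 rose: the mitophagy gene Bnip3 (5.66-fold), the glycolytic enzyme Hk2 (2.88-fold) and Higd1a (2.53-fold), with a median over the list of -0.05 against 0.04 over all probes. Among 8 genes of hypoxia sensing Vhl, part of the ligase that degrades HIF, rose 2.14-fold. Of 10 other growth factors Hbegf fell 15.5-fold. Of 4 other angiopoietin-like genes Angptl7 was called lower, but it passed the filter only through the arrays of weeks 6 and 15. Its call is thus given as a description. It was not well above background on any WS array, so it was at least 10.9-fold lower there. That bound sets the mean of the bright arrays against the lowest signal well above background on the dim ones. None of 7 angiogenesis inhibitors and none of the 2 further VEGF ligands, Vegfc and Figf, passed.

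Adipocyte, immediate early and epithelial markers moved with the same arrays. Of 12 adipocyte markers 9 rose in the WS arrays, with a median of 4.01 over the list against 0.04 over all probes. Among them were the hormones Lep (82.5-fold) and Retn (at least 78.9-fold, since it was saturated on all 4 WS arrays). Adrb3, a receptor of lipolysis, and Plin1 of the lipid droplet rose too, with no fold given because arrays of both sets were saturated. These calls, too, were absent with the random blocks. Of 12 immediate early and digestion response genes 11 fell (median -3.52), led by Fos (68.3-fold), Fosb (37.0-fold), Atf3 (at least 26.2-fold) and Ier3 (20.9-fold). Of 6 epithelial markers 4 fell (median -5.41), among them Krt18 (at least 206-fold) and Krt14 (22.1-fold), while Krt8 and Epcam were well above background on 1 of 4 WS arrays. Krt8 and Epcam thus passed the filter only through the arrays of weeks 6 and 15, so their calls among the 4 are given as a description. Single markers fell in 4 further lists: Vwf of 9 endothelial, Pdgfra of 8 fibroblast, Cd14 of 9 macrophage and Ccl19 of 4 lymph node stroma markers. None of 8 pericyte, 6 T cell, 5 B cell, 8 muscle and 3 erythroid markers passed. The part of these markers in the difference of Vegfb and Angptl2 was not tested.

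**Figure D2:**
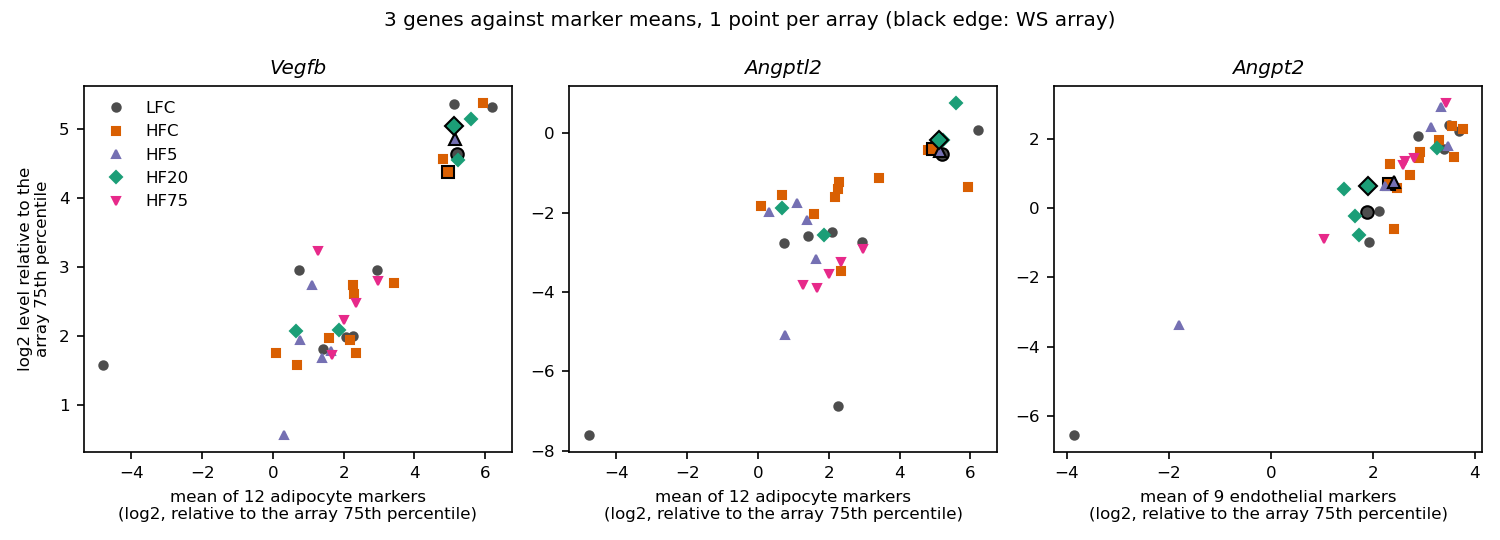
Levels of Vegfb and Angptl2 against the mean of 12 adipocyte markers and of Angpt2 against the mean of 9 endothelial markers (both axes log2 above the array's 75th percentile), with 1 point for each of 36 arrays, 1 symbol per diet and a black edge for WS arrays. Vegfb was 4.37 or more on the 10 arrays with an adipocyte mean of at least 4.80 and 3.23 or less on the other 26. The share of all probes so separated was not counted.

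The adipocyte mean split the 36 arrays into separate clusters, so no correlation over all of them is given. It was 4.80 to 6.20 on 10 arrays: HFC day 1, LFC and HFC day 6, the 4 WS arrays, LFC week 12, and HF20 of weeks 12 and 15. It was 0.09 to 3.43 on 25 arrays and -4.79 on LFC week 18. Vegfb was 4.37 to 5.37 on the 10 arrays and 0.56 to 3.23 on the 26. Vegfa was 1.76 to 4.19 and -0.98 to 1.38, so neither gene overlapped between the clusters. The share of all probes that separate in this way was not counted, so this is not a trait particular to these genes. Within them, Vegfb had r of 0.69 (rho 0.52, n = 10) and 0.42 (rho 0.50, n = 26) with the adipocyte mean. For Vegfa r was -0.17 and -0.20, so it followed the mean in neither cluster. Angptl2 was -1.35 to 0.77 on the 10 arrays and -7.61 to -1.14 on the 26, with a small overlap and r of 0.07 and 0.48 (-0.05 without LFC week 18, n = 25). Hif1a (-0.06 to 1.69 and -0.18 to 2.40) and Adm (-2.17 to 0.50 and -4.84 to 2.19) overlapped widely. The genes most like Vegfb over all 36 arrays were Ivd, an enzyme of leucine breakdown (r of 0.96), Mgmt (0.96) and Acaa1b, a peroxisomal thiolase (0.96). For Vegfa they were Mtch2 (0.93), 1300001I01Rik (0.92) and Stx18 (0.92).

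Over the weeks on diet Pgf was called, 1 of 9 genes, a share no higher than the 13.8% of all probes called. At week 6 it was 0.14 on LFC, -0.38 on HFC, 0.42 on HF5, -0.02 on HF20 and -0.34 on HF75. At week 3 the same diets had -1.11, -2.18, -4.32, -1.75 and -2.29, at week 12 -4.03, -1.41, -1.51, -3.02 and -2.95, and at week 15 -1.86, -1.87, -1.19, -3.23 and -1.48. Every array of week 6 lay above every array of the other 3 weeks, whichever the diet. The nearest of those, LFC week 3, was not well above background. The share of all probes so separated was not counted. Outside these weeks, HFC day 6 (-0.35) lay within the range of week 6. The limma F test over the 4 weeks with diet in the model gave a range of 2.55 between week means, or 5.84-fold (adjusted p = 0.0374, 20 arrays). Pgf was 1 of 9 genes called, where 13.8% of 31039 probes were. At an unadjusted p under 0.05 the counts were 3 of 9 and 32.1%. Adm had a range of 1.42 (limma adjusted p = 0.109) and Vegfa of 1.74 (adjusted p = 0.140), and the other 6 had adjusted p of 0.221 or more. The call of Pgf was lost without the filter on dim probes (adjusted p = 0.0598) and when dim values were raised to the background (0.0757). In limma with normexp, which called 18711 of the 31039 probes, Adm (0.0318), Angpt1 (0.00203) and Angptl4 (0.0184) were called too. With array weights, which called 11382, so were Hif1a (0.0274), Adm (0.00478) and Angptl4 (0.0426). In limma the call of Pgf held with the scan date as a random block (adjusted p = 0.0440), and the lowest of 9 alternatives was 0.00233. That block cannot take out a date effect between weeks, since no scan date held arrays of more than 1 of these weeks. The correlation within dates was 0.012, so the fit was close to the one without the block.

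Single genes of other lists were called over these weeks. Figf, a VEGF ligand of lymphatic vessels (range 2.91, limma adjusted p = 0.00250), was called of 2 ligands, and Thbs2 (1.69) and Pf4 (1.48) of 7 inhibitors. Of 4 other angiopoietin-like genes 1 was called. No gene was called of 10 receptors, 10 growth factors, 8 genes of hypoxia sensing and 25 HIF targets. The cell type markers called were 5 of 5 for B cells, 3 of 6 for T cells, 3 of 4 for lymph node stroma and 3 of 6 for epithelium. They were 2 of 8 for fibroblasts, 2 of 9 for macrophages and 1 of 8 for pericytes. None was called of 12 adipocyte, 9 endothelial, 8 muscle, 3 erythroid and 12 immediate early genes. The epithelial mean stood with Pgf: it was 0.56 to 3.27 on the 5 arrays of week 6, -2.94 to 0.13 at week 3, -5.57 to -1.00 at week 12 and -3.18 to 2.33 at week 15. Across 36 arrays Pgf and that mean had r of 0.73 and rho of 0.73, and r of 0.66 without LFC and HF5 of week 6. With the pericyte mean r was 0.66 and rho 0.71, and r was 0.64 without LFC week 18 and HF5 week 3. Their part in the difference of Pgf was not tested. Scan dates of different weeks differed, so week, age and date cannot be told apart. Most like Pgf were Osbpl10 (r of 0.91), Ccdc19 (0.89) and Angpt4 (0.89).

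**Figure D3:**
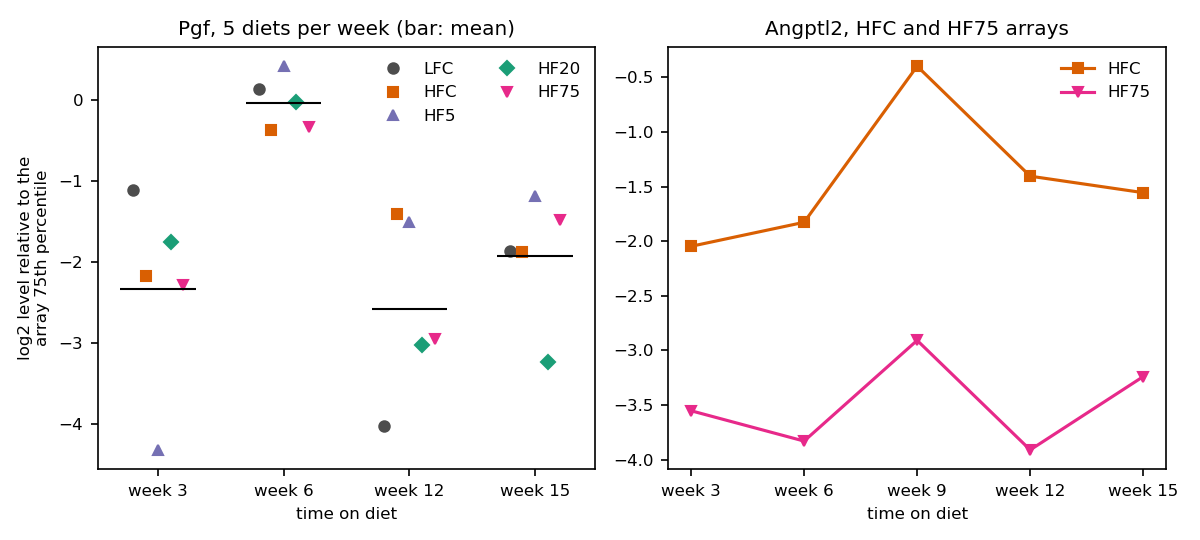
Left, Pgf on the arrays of weeks 3, 6, 12 and 15 (y axis, log2 above the array's 75th percentile), with 1 symbol per diet and a bar at the mean of each week; right, Angptl2 on the HFC and HF75 arrays of weeks 3 to 15. Pgf was -0.38 or more on all 5 arrays of week 6 and -1.11 or less on the others, and Angptl2 was lower on HF75 than on HFC in each of 5 weeks.

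The high-fat diet was compared with the low-fat diet over 11 labelled time points. With day 14 and week 0 averaged, limma called 0 of 29548 probes. None of the 9 genes passed, as 0% of 29215 probes did (limma, adjusted p under 0.05). At an unadjusted p under 0.05 they were 2 of 9 and 3.04%, Hif1a and Angptl4. Hif1a was higher on HFC in 9 of 11 pairs, from -0.88 at week 15 to 1.76 at day 6, with a mean of 0.70 (SE 0.30, limma adjusted p = 0.965). Angptl4 was higher in 8 of 11 pairs (adjusted p = 0.965), but 5 LFC and 6 HFC arrays were saturated, so no mean is given. Precision here is limited by how many arrays there are, and a p above the threshold does not show equal levels. LFC week 18 gave the largest difference of Adm (5.28, 9 of 11 pairs higher, mean 1.05, or 0.63 without this pair). It did so for Angpt2 (7 of 11 pairs higher), as LFC day 1 did for Angptl2 (7 of 10). Those 2 LFC levels were not well above background, so the differences and means they enter are not given. Angpt1 was higher in 7 of 10 pairs (-2.95 to 3.02), with levels not well above background at day 6 and weeks 3 and 18, so no mean is given. Pgf, Vegfa and Vegfb had means of 0.28, 0.11 and -0.19. Single pairs moved or turned these means. Without day 1 they were 0.42, -0.28 and -0.46, and without week 12 they were 0.02, 0.39 and 0.05. LFC week 3 was not well above background for Hif1a, Adm, Pgf and Vegfa, so their means are not exact either. In the same pairs all 9 endothelial markers had a mean difference above 0 (median 1.09), as had all 10 receptors (median 0.88) and all 8 pericyte markers (median 1.30), against 0.02 over all probes. So had all 8 fibroblast markers (median 1.33) and all 12 immediate early and digestion response genes (median 1.36). Below 0 were all 6 epithelial (median -0.76), 5 B cell (-0.33) and 4 lymph node stroma markers (-0.45). These directions rest on the pair of day 1. Without it, 4 of 5 B cell (median 0.27) and 3 of 4 lymph node stroma markers (0.25) were above 0. Of the epithelial markers 3 of 6 were then above 0 (-0.47). LFC week 18 weighs in the values of the lists above 0. Without its pair the medians were 0.66 for the endothelial, 0.43 for the receptor, 0.67 for the pericyte, 0.43 for the fibroblast and 1.33 for the immediate early list. No gene of any list passed in this comparison, among them Calcrl (1.03, SE 0.33) and Egln3, an oxygen sensor (-1.06, SE 0.36), which had the smallest p of their lists. Of the 11 pairs, 10 had 1 scan date for both arrays. The exception was the pair of day 1, where diet and scan date cannot be told apart.

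The addition of KAL-1 at 5 and 20 µg was compared with HFC alone at the same weeks. These comparisons share their HFC arrays with each other and with HF75 against HFC. At 5 µg none of 9 genes passed, as 0% of 29200 probes did in limma, and at an unadjusted p under 0.05 they were 0 of 9 and 5% (1459 probes). Apart from Angptl2, lower in 4 of 6 pairs, from Angptl4, which was saturated on both arrays of week 15, and from Angpt2, mean differences ran from -0.10 for Vegfb to 0.38 for Hif1a. Week 3 weighs in the latter, since the pairs of Hif1a ran from -1.02 at week 6 to 1.72 at week 3. Those of Vegfa ran from -1.00 to 1.32 at the same weeks. Angpt2 was higher in 4 of 6 pairs (median 0.07) and had a mean of -0.34 through week 3 (-4.66). That array also gave the lowest values of Pgf (-2.15) and of Angptl2, which was not well above background there. Of the markers, 0 of 9 endothelial (median -0.54), 0 of 8 fibroblast (-0.59) and 1 of 8 pericyte markers (-0.64) had a mean difference above 0. So had 0 of 3 erythroid (-0.90) and 6 of 6 epithelial markers (1.43), against -0.01 over all probes. None of these passed, and their part was not tested. Week 3 weighs in the endothelial and fibroblast values. There Pecam1 was -0.88 on HF5 and 0.99 on HFC, and Pdgfra was -2.07 and 0.69. At the later weeks Pecam1 was lower on HF5 only at week 6, and Pdgfra at weeks 6, 9 and 12. The medians without week 3 were not computed. At 20 µg none of 9 genes passed, as 0% of 30831 probes did in limma, and at an unadjusted p under 0.05 they were 1 of 9 and 11.9%. That gene was Vegfb, higher on HF20 in 5 of 5 weeks, by 0.12, 0.33, 0.67, 2.40 and 2.97, with a mean of 1.30 (SE 0.50, limma adjusted p = 0.411). The difference was largest at weeks 12 and 15, where the adipocyte mean was 5.60 and 5.24 on HF20 and 2.27 and 0.67 on HFC. Vegfa differed by 2.87 and 2.59 and Angptl2 by 2.17 and 1.37 in the same weeks. Lower there were Adm (-2.09 and -2.04), Angpt2 (-2.20 and -2.40), Pgf (-1.61 and -1.36) and Hif1a (-1.03 and -0.85). The part of the adipocyte markers was not tested. Of the adipocyte markers 11 of 12 had a mean difference above 0 (median 1.77, against 0.08 over all probes), and of the immediate early genes 0 of 12 (median -2.46). All 9 endothelial markers (median -0.68), all 10 receptors (-0.44) and 7 of 8 pericyte markers (-0.69) had one below 0. Above 0 were 2 of 6 T cell (median -1.65), 0 of 5 B cell (-1.34), 1 of 4 lymph node stroma (-1.24) and 1 of 9 macrophage markers (-0.48). None passed.

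The first 2 weeks were compared with weeks 3 to 18 on LFC and HFC, without week 9. None of 9 genes passed, as 0% of 30293 probes did in limma. At an unadjusted p under 0.05 they were 1 of 9 and 4.89%. That gene was Angptl4, with a median of 5.88 on the 10 early arrays (3.94 to 8.49) and 5.27 on the 10 later ones (1.03 to 6.36), and a difference of 1.41 (SE 0.59, limma adjusted p = 0.962). The ranges overlapped, and 5 and 4 of the arrays were saturated, so the difference is not exact. All 12 adipocyte markers (median 2.66) and 8 of 9 endothelial markers (median 1.38) also had a difference above 0, against 0.01 over all probes, and their part was not tested. LFC week 18 weighs in these values and in that of Angptl4. It is a later array, with Angptl4 at 1.03, an adipocyte mean of -4.79 and a low endothelial mean. The differences without it were not computed. Time on diet, age and processing date cannot be told apart here. Whether the HFC effect differed between these periods was tested by an interaction. None of 9 genes passed, as 0% of 29912 probes did in limma, and at an unadjusted p under 0.05 they were 2 of 9 and 4.94%. Angpt1 was higher on HFC in 4 of 4 early pairs and 2 of 5 later ones, with levels not well above background in the pairs of day 6 and weeks 3 and 18, an interaction of -2.70 (SE 0.89, limma adjusted p = 0.807). Without the 2 arrays that stood apart it was -2.15, and with the background corrected by normexp its sign turned (1.25). Vegfb had -1.94 (SE 0.79, adjusted p = 0.807). The median over all probes was itself -0.47.

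With 75 µg of KAL-1 the level of Angptl2, the value behind the choice of these genes, was below HFC in every week. It was -3.55, -3.83, -2.91, -3.91 and -3.24 on HF75 at weeks 3 to 15, and -2.05, -1.83, -0.40, -1.40 and -1.56 on HFC. The ranges of the arrays were apart, as for 3.45% of 28837 probes, and the mean difference was -2.04 (SD 0.46, 5 pairs), or 4.12-fold. Of the probes 53 had a lower mean difference. It was -1.24 with normexp background correction, -2.48 as the mean of the gene's probes, and -2.10 in weeks 12 and 15, the pairs with 1 scan date. Vegfa was lower on HF75 in 5 of 5 pairs, by -0.13, -1.00, -3.80, -0.09 and -0.35. The pair of week 9 sets a WS array against one without these letters. Adm was also lower in 5 of 5, with a mean of -0.85 (SD 0.44), and the arrays of both genes overlapped. In all 8.69% of probes were lower in all 5 pairs and 8.61% higher. Angpt1 was lower in 4 of 5 pairs, with the HF75 array of week 3 not well above background. Pgf (-0.21), Hif1a (0.26), Vegfb (0.01) and Angpt2 (0.01) had means near that of all probes (median -0.02). Their pairs went both ways. Those of Vegfb ran from -1.58 to 1.49 and those of Angpt2 from -1.57 to 1.44, both lowest in the pair of week 9. The pairs of Pgf ran from -1.54 at week 12 to 0.39, and those of Hif1a from -0.35 to 1.06. Angptl4 was saturated on 1 HF75 and 3 HFC arrays, so no mean is given. The macrophage mean was 0.22 to 0.81 on HF75 and 0.72 to 2.30 on HFC, and 8 of 9 macrophage markers had a mean difference below 0. Of the fibroblast markers 6 of 8 (median -0.87) and of the erythroid markers 3 of 3 (median -1.45) were also below 0. The epithelial markers were all 6 above 0 (median 1.54), as were all 8 muscle markers (median 0.88). Their part in these values was not tested.

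Promoters were read for the genes that passed a test. RefSeq sequences of 300 bases around a start on GRCm38, most of them upstream, matched 6 of the 9 symbols with 8 promoters. They were searched for the core letters of the hypoxia response element, ACGTG, which reads CACGT on the other strand, and GCGTG, which reads CACGC. The letters ACGTG were in 19.6% of 32851 promoters, GCGTG in 32.4% and either in 43.8%, and either was in 5 of the 8 promoters, of 5 genes. Matches stand in capitals below, on the strand of the gene, and a match is a description of letters and not a site. Vegfb (chr19:6987602-6987901, minus strand) held GCGTG 2 times, and Pgf (chr12:85177264-85177563, minus strand) held it once, while a further Pgf promoter and that of Angptl2 (chr2:33215711-33216010, plus strand) held neither.
Vegfb: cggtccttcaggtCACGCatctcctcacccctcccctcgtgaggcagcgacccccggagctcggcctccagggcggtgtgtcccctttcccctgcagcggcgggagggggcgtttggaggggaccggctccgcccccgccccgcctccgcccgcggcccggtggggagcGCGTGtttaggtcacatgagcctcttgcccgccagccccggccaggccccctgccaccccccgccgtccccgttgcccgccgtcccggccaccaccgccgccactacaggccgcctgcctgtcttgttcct
Pgf: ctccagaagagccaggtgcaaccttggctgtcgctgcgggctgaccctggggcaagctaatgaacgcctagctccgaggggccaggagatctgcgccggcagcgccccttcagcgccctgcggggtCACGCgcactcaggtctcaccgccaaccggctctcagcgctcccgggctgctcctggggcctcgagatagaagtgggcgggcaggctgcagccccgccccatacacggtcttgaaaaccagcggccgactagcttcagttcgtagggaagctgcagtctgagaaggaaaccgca
Angptl2: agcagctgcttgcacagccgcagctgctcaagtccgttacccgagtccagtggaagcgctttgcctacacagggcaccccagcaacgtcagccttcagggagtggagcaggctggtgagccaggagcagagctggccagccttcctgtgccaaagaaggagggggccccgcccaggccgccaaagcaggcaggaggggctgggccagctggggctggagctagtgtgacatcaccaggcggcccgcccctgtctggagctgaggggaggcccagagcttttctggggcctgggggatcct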

How the data were processed

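Intensities were read from the deposited scanner files, where Feature Extraction 10.5.1.1 had corrected background and detrended them, per the file headers. A deposited table also held 40 columns of the authors' log2 fold changes, which were not used. Spots that the software rejected were dropped, duplicate spots were averaged, and log2 values had the 75th percentile of their array subtracted. A probe was tested if a share of 0.5 or more of 1 group's arrays had it well above background. Tests used limma 3.58.1 in R 4.3.3, with time point as a block for diets and diet as a covariate for time. P-values were adjusted over all tested probes by the method of Benjamini and Hochberg, at 0.05. The probe with the highest mean level stood for a gene. Tables and figures were made with Python 3.11.15, pandas 2.3.3, NumPy 2.4.6 and matplotlib 3.10.9. The genes and the pathway and marker lists were chosen with earlier results of these data known. All 9 genes are named, with up to 4 genes of a list that passed, by size of difference, or else up to 2 with the smallest p, and the 3 genes most correlated with each. Alternatives were normexp background correction, quantile normalization, other filters, array weights, the mean of a gene's probes, random blocks for scan date or slide, and leaving out arrays.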

Additional observations from a re-analysis of the deposited data

Results flagged for a closer look

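An array was listed here when its gap to the nearest array of its group was large for the range of the group by Dixon's test. The groups were the HF5, HF20, HF75 and WS arrays for each gene. The LFC and HFC arrays were not tested in this way. Chance flags about 1 in 20 groups, and 6 of 36 groups were listed. On the HF5 array of week 3, Angpt2 (-3.38) and Angptl4 (3.25) were far below the other 5 arrays of that diet. Hif1a was far above the others on HF20 week 3 (1.00) and on HF75 week 15 (2.26). Among the WS arrays, Hif1a was lowest on HF5 (0.0905, the next 0.213), a small gap in a narrow range, and Angpt2 was lowest on LFC (-0.11, the next 0.65).

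The 2 arrays of week 18 whose labels conflict were used in no comparison. On array 1 Angptl2 was 0.86, above the highest LFC array (0.08), but that array had 21710 spots rejected by the scanner software. On array 2 Adm was 1.46, above the highest LFC array (1.14) and within the ranges of HFC (to 1.60) and HF5 (to 2.19).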

How the results depend on the processing

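No called value of any of the 9 genes reversed under the alternatives run. For single genes, HFC against LFC had 218 alternative values, none past the threshold, of which 11 changed sign. For HF5 these were 160 and 19, for HF20 144 and 6, for the first 2 weeks 92 and 5 and for the interaction 74 and 10. HF75 against HFC, which was not tested, had 99 alternative values, of which 11 changed sign. Signal over background limits Angpt1 and Angptl2 most, with 6 and 5 arrays not well above it. The added alternatives (random blocks, no replicate block, leaving out each LFC and HFC or HF5 pair, and HF75 pairs of 1 scan date) were chosen after seeing the data. The diet comparisons were paired by time point, which the replicate numbers of LFC and HFC follow. With no replicate block, limma called 0 probes for HFC against LFC and for HF5 and HF20 against HFC, as with it (426, 403 and 2058 at an unadjusted p under 0.05).

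For the WS arrays, 2008 probes were called. The count was 499 with normexp background correction, 1336 with the mean of a gene's probes, 13164 with array weights, and 0 without a filter, with weeks 6, 12 and 15 as reference, or with scan date or slide as a random block. At an unadjusted p under 0.05 in limma these last 4 had 9129, 6949, 4755 and 4640. Leaving out 1 WS array gave 0 to 3649: 0 without LFC (5972 unadjusted), 0 without HF5 (5628), 1 without HFC and 3649 without HF20. Vegfb stayed called in 6 of 14 alternatives (adjusted p 0.000720 to 0.285) and Angptl2 in 7 of 14 (0.000967 to 0.285). The differences among weeks had 4294 probes called, and 18711 with normexp, 2793 without a filter, 1176 with probes well above background on every array and 11382 with array weights. Pgf stayed called in 7 of 9 alternatives (adjusted p 0.00233 to 0.0757). The first 2 weeks had 0 called in limma (1482 at an unadjusted p under 0.05), 2 with probes well above background on every array and 113 with array weights. The cause was not tested.

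For HF75 against HFC the median over all probes was -0.23 with normexp (-0.02 as reported). Normexp moved that median to -0.30 for HF5, -0.39 for HF20, 0.20 for the first 2 weeks, 0.21 for the WS arrays and 0.67 for the interaction, and quantile normalization moved it to 0.19 for HFC against LFC and 0.03 for the interaction. The scan date as a fixed block was not run for the time comparisons, since no date held both sides.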

Other observations

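On the first of the 2 week 18 arrays with conflicting labels, Vegfb was 0.93, Hif1a -0.79, Adm -0.70 and Angptl4 3.85, and Vegfa, Pgf and Angpt1 had no value. On the second, Vegfa was 0.20, Vegfb 2.96, Pgf -1.00, Hif1a 1.19, Angpt1 -3.72, Angpt2 2.12, Angptl2 -1.45 and Angptl4 5.99.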
